A study of Homo sapiens with 12 samples.

Results

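Most of the 10 genes described here encode inhibitors that cells make in response to ERK signalling and that act back on MAP kinase pathways. They were chosen by name, as DUSP1, DUSP4, DUSP5, DUSP6 and DUSP10 (MAP kinase phosphatases), SPRY2 and SPRY4 (Sprouty proteins), SPRED1 and SPRED2 (Sprouty-related proteins) and PHLDA1 (a pleckstrin homology-like domain protein). The rule itself used no measured value, but earlier results of these data were known when the genes were chosen. All 10 were listed in both deposited tables, among 16633 genes listed in at least 1 table and 15459 in both, and all 10 passed the minimum level for testing.

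HT1080 is an established human fibrosarcoma line, known to carry an activating mutation of NRAS, and every group shared that background. Polyadenylated RNA was sequenced in 12 libraries, 3 in each of 4 groups. PMA cells were given 40 nM phorbol 12-myristate 13-acetate, a phorbol ester that binds and activates protein kinase C, and ConA cells were given 40 µg/mL concanavalin A, a lectin that binds mannose and glucose residues of glycoproteins. All dishes (10 cm) were seeded with 1000000 cells in biotin-depleted medium with 10% serum. After 3 days the medium was changed to biotin-depleted medium with 1% serum, and exposure lasted 24 h. The PMA controls and the ConA controls were untreated, and each treatment had controls of its own. The labels do not say whether replicates came from separate cultures, so p-values measure only the spread between these libraries, which may be technical. PMA and ConA shared no control library and their tables were normalized apart, so a difference between treatments and one between experiments cannot be told apart.

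ERK1 and ERK2 are the last kinases of the RAS, RAF and MEK cascade, and they are switched off when MAP kinase phosphatases remove the phosphates from the threonine and tyrosine of their activation loop. Dual-specificity phosphatases differ in where they work: DUSP1, DUSP4 and DUSP5 are nuclear, DUSP6 is cytoplasmic, and DUSP10 works mainly on p38 and JNK. Sprouty and SPRED proteins act upstream, between receptor and RAF. SPRED proteins bring the RAS inactivator neurofibromin to the membrane. Most of these genes are known as transcriptional targets of ERK itself, so their transcripts are often read as a record of past pathway output.

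The files give normalized counts, read counts per gene divided by 1 factor per library and not by gene length. About 33637952 to 45595027 estimated reads were assigned to genes per library, with a median of 40968356. Summed mesenchymal markers were high in every library, at 490500 to 734400 normalized counts over the 10 genes listed for PMA and the 9 listed for ConA. They were carried mostly by VIM, FN1, SPARC, LGALS1 and CD44. S100A4 (69.19 to 215.4) and THY1 (101.1 to 240.7, listed for PMA only) were low. Summed epithelial markers were 130.0 to 135.9 in the PMA controls and 65.85 to 81.26 with PMA, with 2 of 8 genes listed. Over the ConA experiment they were 154.3 to 216.3, with 6 of 8 listed. Lymphocyte markers were low but differed between experiments. Their sum was 706.8 to 823.4 in the PMA controls, 870.7 to 1424 with PMA and 34.06 to 52.03 over the 6 libraries of the ConA experiment, where PTPRC, CD3E, CD2 and NKG7 were not listed. Other marker sums moved with a treatment. The mesenchymal sum was 666000 to 734400 in the ConA controls and 490500 to 540800 with ConA. Its genes did not all move alike. With PMA the mean of VIM went from 195800 to 275200 and that of SPARC from 63220 to 21960. With ConA the mean of VIM went from 138400 to 79800 and that of COL6A1 from 15310 to 18190. Myeloid markers, carried mostly by CD68, summed to 6192 to 6623 in the ConA controls and 17600 to 20810 with ConA, and to 5312 to 5772 in the PMA controls and 7579 to 7791 with PMA. Endothelial markers, carried mostly by TIE1, summed to 2529 to 2694 in the PMA controls and 4562 to 4807 with PMA, and to 2959 to 3499 over the ConA experiment. The part of these markers in the results was not tested.

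The comparison of each treatment with its own controls asks how the transcripts of these inhibitors stood after 24 h. With PMA, DUSP5, SPRY4, SPRY2 and SPRED2 rose at least 2-fold and DUSP4 fell, while with ConA only DUSP10 passed that threshold among the 10. A gene was called when its fold change was at least 2 (an absolute log2 value of 1) and its adjusted p at most 0.0001, by limma on log2(normalized count + 1) with Benjamini-Hochberg adjustment over all genes tested. By that rule 4 of the 10 genes were called higher and 1 lower with PMA, where 4.03% of all 15153 genes tested were called higher and 4.61% lower. With ConA 1 was called higher and 0 lower, against 5.83% and 2.88% of 15139 genes. The words rose and fell are used from here on for a looser rule, an adjusted p of at most 0.05 at any fold. By it 7 members rose and 1 fell with PMA, against 32.8% and 30.5% of all genes, and 4 rose and 4 fell with ConA, against 32.8% and 32.5%. At an unadjusted limma p under 0.05 the counts were 8 and 1 with PMA, against 34.3% and 32.4% of all genes, and 4 and 4 with ConA, against 34.4% and 33.9%. On the log2 scale the median change of the 10 was 0.76 with PMA and -0.10 with ConA, where that of all genes tested was 0.00 in both. Treated libraries lay apart from their controls for 8 of the 10 with PMA, against 67.9% of all genes tested, and for 9 of the 10 with ConA, against 69.3%.

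**Figure D1:**
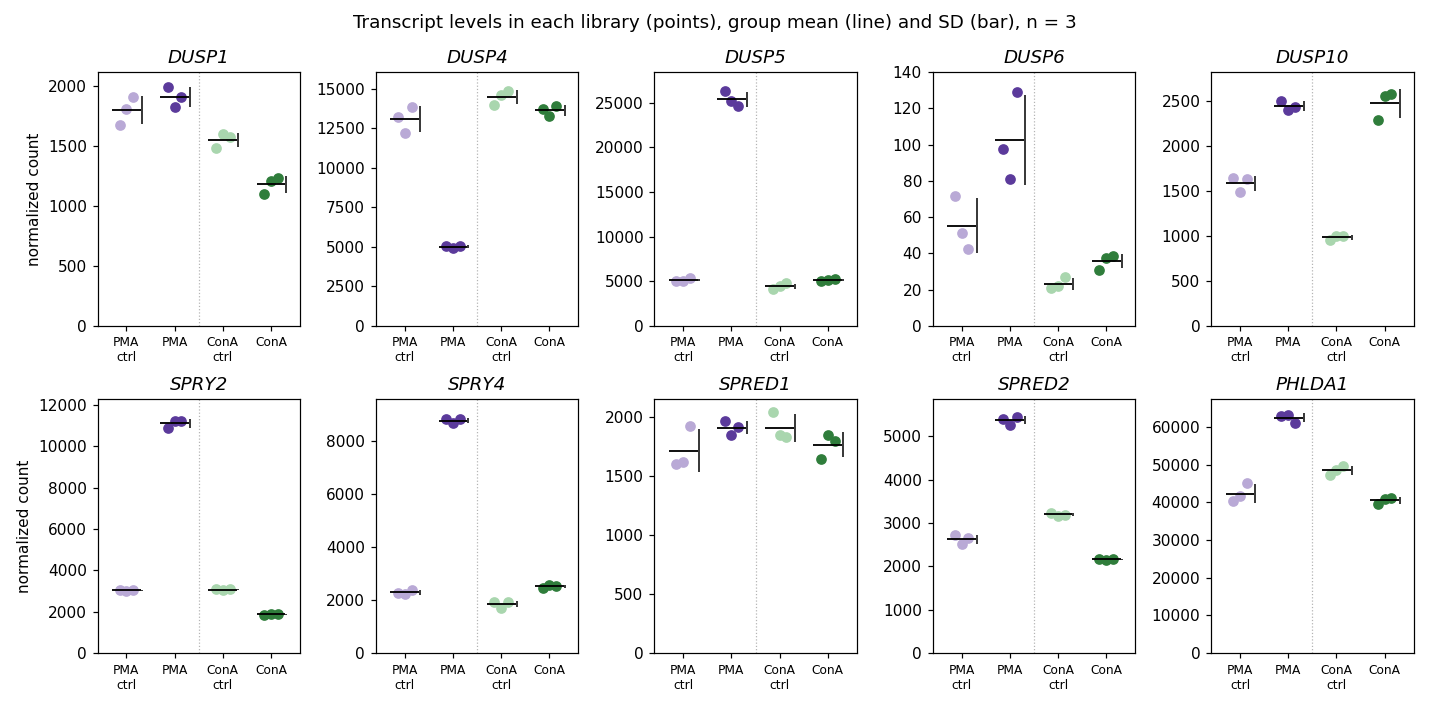
Normalized counts (vertical axis, linear, from 0) of the 10 genes in each of 12 libraries, with the group mean as a line and the SD as a bar. The PMA libraries of DUSP5, SPRY2, SPRY4 and SPRED2 stand far above both control groups, those of DUSP4 stand below, and DUSP6 lies under 130 normalized counts throughout.

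The inhibitors that act upstream come first. SPRY2, which binds growth factor signalling adaptors and holds back RAS activation, rose with PMA and fell with ConA. Its levels were 3032.5, 3002.1 and 3066.5 normalized counts in the PMA controls and 10858, 11239 and 11231 with PMA. In the ConA controls they were 3076.2, 3025.6 and 3097.4, and with ConA 1854.4, 1901.2 and 1867.3. In normalized counts the control groups of the 2 experiments lay close together, in tables that were normalized apart. Scaled to each library's estimated reads (in the unit given with DUSP10 below), they did not overlap. Their means were then 82.16 ± 0.928 (SD, n = 3) in the PMA controls and 71.48 ± 1.28 in the ConA controls. On both scales every PMA library of SPRY2 stood above all controls and every ConA library below them. Its log2 fold change was 1.87 ± 0.04 (SE, n = 3 per group, limma with Benjamini-Hochberg adjustment, adjusted p = 6.83e-12) with PMA, a 3.66-fold rise. Values after ± beside a log2 change are limma's moderated standard errors with 3 libraries per group throughout. They are drawn towards a trend over all genes, so they are not the spread of that gene's libraries alone. With ConA the level came to 0.611 times that of its controls (log2 fold change -0.71 ± 0.05, limma adjusted p = 3.26e-08), short of the 2-fold threshold. The difference of the changes, PMA minus ConA, was 2.58 on the log2 scale (95% interval 2.46 to 2.70, limma adjusted p = 1.36e-16), the largest of the 10.

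SPRY4, a second Sprouty protein that inhibits receptor-driven ERK activation, rose with both treatments. The PMA controls held 2260.8, 2225.9 and 2396.7 normalized counts and the PMA libraries 8819.7, 8668.2 and 8816.0. The ConA controls held 1913.2, 1716.8 and 1931.3 and the ConA libraries 2456.3, 2558.6 and 2518.8. No treated library overlapped its controls, and the PMA libraries were the highest of the 12. On the log2 scale the fold change was 1.93 ± 0.04 with PMA (limma adjusted p = 1.16e-11) and 0.44 ± 0.06 with ConA (limma adjusted p = 1.84e-05). The PMA change exceeded the ConA change by 1.49 (95% interval 1.35 to 1.64, limma adjusted p = 7.95e-12).

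SPRED2, which works with neurofibromin against RAS, moved in the same directions as SPRY2 at smaller size. It stood at 2715.3, 2516.5 and 2650.4 normalized counts in the PMA controls and at 5413.2, 5269.1 and 5447.9 with PMA. It stood at 3237.7, 3173.7 and 3193.6 in the ConA controls and at 2163.9, 2151.0 and 2181.0 with ConA. Neither pair of groups overlapped. The log2 fold change with PMA, 1.03 ± 0.04 (limma adjusted p = 2.04e-09), was just past the 2-fold threshold and came to 0.89 after quantile normalization, under it. With ConA the change was -0.56 ± 0.05 (limma adjusted p = 2.86e-07), and the difference of the changes was 1.60 (95% interval 1.47 to 1.72, limma adjusted p = 3.12e-13).

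SPRED1, its close relative, did not pass the test with either treatment. The PMA experiment gave 1605.2, 1614.2 and 1924.6 normalized counts in controls and 1961.9, 1850.7 and 1917.0 in treated libraries. The ConA experiment gave 2042.5, 1843.9 and 1832.2 in controls and 1647.2, 1847.9 and 1798.1 in treated libraries. The groups overlapped in both experiments, and 1 PMA control, replicate 3, reached the PMA libraries. SPRED1 had a log2 fold change of 0.16 (95% interval 0.01 to 0.31, limma adjusted p = 0.0557) with PMA and -0.11 (95% interval -0.25 to 0.03, limma adjusted p = 0.151) with ConA. Without PMA control replicate 3 the PMA value was 0.25 (limma adjusted p = 0.000275), and after quantile normalization the ConA value was -0.17 (limma adjusted p = 0.0367), each then past the looser rule. The difference of the changes was 0.27 (95% interval 0.06 to 0.48, limma adjusted p = 0.0239). It passed the looser rule with all libraries but not without any 1 of PMA control replicates 1 and 2, PMA replicate 1, ConA control replicate 4 or ConA replicate 1, where it was 0.22 to 0.25 (limma adjusted p 0.0542 to 0.0708).

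The promoter sequences of SPRY2, SPRY4 and SPRED2 are shown because these transcripts moved together with PMA, and that of DUSP1 because its transcript, a known early target of the same signals, did not pass the test with PMA. They come from RefSeq windows on GRCh38.p14, of which 12 covered 8 of the 10 genes. Each run is on the minus strand, from 250 bases before to 20 bases after an annotated start. Capitals mark matches to TGANTCA (AP-1), TGACGTCA (cAMP response element, CRE), TGACG or its reverse complement CGTCA (CRE half-site, contained in the CRE) and CCGGAA (ETS). The SPRED2 run belongs to the second of its 2 windows, which lies inside the gene downstream of the first start, and the SPRY4 run to a start that is not the outermost of the gene.
SPRY2, chr13:80341107-80341376: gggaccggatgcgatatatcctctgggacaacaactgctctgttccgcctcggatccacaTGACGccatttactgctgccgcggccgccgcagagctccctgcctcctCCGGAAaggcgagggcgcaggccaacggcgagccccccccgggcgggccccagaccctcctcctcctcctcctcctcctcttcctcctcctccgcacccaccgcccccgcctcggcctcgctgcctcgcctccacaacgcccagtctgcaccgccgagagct
SPRY4, chr5:142324228-142324497: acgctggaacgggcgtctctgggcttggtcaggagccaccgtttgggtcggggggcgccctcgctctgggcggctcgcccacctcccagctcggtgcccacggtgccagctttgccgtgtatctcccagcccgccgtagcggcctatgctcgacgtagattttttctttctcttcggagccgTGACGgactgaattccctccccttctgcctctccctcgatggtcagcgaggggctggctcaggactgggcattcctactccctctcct
SPRED2, chr2:65366759-65367028: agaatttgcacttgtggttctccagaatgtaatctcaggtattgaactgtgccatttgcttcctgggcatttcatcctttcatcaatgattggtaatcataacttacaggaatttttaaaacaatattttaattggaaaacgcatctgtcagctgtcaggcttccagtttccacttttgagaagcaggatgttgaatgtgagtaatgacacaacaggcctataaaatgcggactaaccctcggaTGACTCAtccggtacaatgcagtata
DUSP1, chr5:172771176-172771445: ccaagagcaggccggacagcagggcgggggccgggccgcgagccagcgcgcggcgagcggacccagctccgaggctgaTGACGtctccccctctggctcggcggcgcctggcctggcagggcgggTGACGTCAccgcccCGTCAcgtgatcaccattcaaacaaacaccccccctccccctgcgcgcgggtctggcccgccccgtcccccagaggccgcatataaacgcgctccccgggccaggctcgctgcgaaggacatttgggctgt

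Among these runs only that of SPRED2 held an AP-1 match, at position -6 from the start, and its window held another at +35, beyond the printed stretch. The SPRED2 window at the first start held no AP-1 match and a CRE half-site at +31, and the other SPRY2 windows, both at later starts, and the first DUSP10 window held no match of any of the 5 motifs. SPRY2 held a CRE half-site at -190 and an ETS match at -142, and SPRY4 a CRE half-site at -68. DUSP1 held the full CRE at -125 and 4 half-site matches, 2 of them inside it. Over all 35116 RefSeq windows of 300 bases, searched on both strands, 7.71% held AP-1, 1.85% the CRE, 24.6% the half-site, 17.2% the ETS match and 1.29% the CArG box, which none of the 12 windows held. Of the other members, PHLDA1 held an ETS match at -89 and the second DUSP10 window a half-site at -4, while the DUSP6 and SPRED1 windows held none of the 5. These letters describe the windows, and neither factor binding nor which start HT1080 cells use was measured.

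Among the phosphatases, DUSP5, a nuclear phosphatase selective for ERK, had the largest change of the 10 with PMA. It was at 5025.9, 5048.3 and 5308.0 normalized counts in the PMA controls and at 26256, 25201 and 24636 with PMA. In the ConA experiment it was at 4147.4, 4433.3 and 4741.3 in the controls and at 4970.6, 5146.6 and 5278.4 with ConA. The PMA libraries stood far above all others, and the ConA libraries lay just over their own controls. The rise was 4.95-fold with PMA (log2 fold change 2.31 ± 0.04, limma adjusted p = 2.98e-12) and 1.16-fold with ConA (0.21 ± 0.06, limma adjusted p = 0.00549), a difference of 2.10 (95% interval 1.95 to 2.25, limma adjusted p = 6.55e-14).

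DUSP4, another nuclear phosphatase, which takes ERK, JNK and p38 as substrates, was the only member to fall with PMA. Its levels were 13197, 12186 and 13820 normalized counts in the PMA controls and 5061.7, 4920.1 and 5037.1 with PMA. They were 13961, 14619 and 14844 in the ConA controls and 13715, 13237 and 13877 with ConA. The PMA libraries lay below all the others, and the ConA libraries lay just under their controls without overlap. The level with PMA was 0.384 times that of the controls (log2 fold change -1.38 ± 0.05, limma adjusted p = 5.42e-10). The ConA difference did not pass the test (-0.09, 95% interval -0.20 to 0.02, limma adjusted p = 0.137). The changes differed by -1.29 (95% interval -1.44 to -1.15, limma adjusted p = 2.95e-11). DUSP4 and DUSP5 were thus both called with PMA, in opposite directions.

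DUSP10, whose main substrates are p38 and JNK, rose with both treatments and was the only member with a larger rise with ConA than with PMA that passed the test of the difference. The controls differed between experiments, at 1643.0, 1495.3 and 1632.1 normalized counts for PMA and 956.62, 997.51 and 998.74 for ConA. The treated libraries lay at 2509.8, 2401.1 and 2439.0 with PMA and at 2294.1, 2559.7 and 2579.9 with ConA. Treated libraries stood above their controls without overlap, and the treated groups of both experiments covered a common range. DUSP10 changed by 0.62 ± 0.05 (log2) with PMA (limma adjusted p = 5.77e-07) and by 1.33 ± 0.06 with ConA (limma adjusted p = 3.35e-10), a difference of -0.70 (95% interval -0.87 to -0.54, limma adjusted p = 6.52e-07). Scaled to each library's estimated reads (in parts per 1000000), the mean level was 43.06 ± 2.09 (SD, n = 3) in the PMA controls and 22.94 ± 0.371 in the ConA controls, and 61.01 ± 1.43 with PMA and 60.51 ± 4.32 with ConA. The larger ConA change thus went with a lower control level, in tables that were normalized apart.

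DUSP1, an immediate early phosphatase for p38, JNK and ERK, fell with ConA and did not pass the test with PMA. The PMA controls held 1674.4, 1802.0 and 1908.3 normalized counts and the PMA libraries 1988.6, 1819.4 and 1906.2. These groups overlapped. The ConA controls held 1479.7, 1596.8 and 1568.7 and the ConA libraries 1096.5, 1207.2 and 1232.9, with no overlap. With PMA the difference was 0.09 on the log2 scale (95% interval -0.04 to 0.21, limma adjusted p = 0.198), -0.004 after quantile normalization and 0.13 without PMA control replicate 3 (limma adjusted p = 0.0365). With ConA it was -0.39 ± 0.07 (limma adjusted p = 0.000106). The changes differed by 0.48 (95% interval 0.30 to 0.66, limma adjusted p = 0.00013).

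DUSP6, the cytoplasmic phosphatase specific to ERK and the usual marker of ERK output, was scarce in all 12 libraries, with 20 to 108 estimated reads in each. It had 71.916, 50.975 and 42.428 normalized counts in the PMA controls and 97.515, 80.797 and 129.31 with PMA. It had 20.841, 22.011 and 27.047 in the ConA controls and 31.041, 37.627 and 38.640 with ConA. The groups did not overlap in either experiment, but the spread was wide, with a coefficient of variation of 27.5% in the PMA controls and 24.0% with PMA. DUSP6 changed by 0.89 ± 0.22 (log2, limma adjusted p = 0.00433) with PMA and by 0.60 ± 0.24 (limma adjusted p = 0.0377) with ConA. The ConA value did not pass the looser rule after quantile normalization (limma adjusted p = 0.0624) or without any 1 of ConA control replicates 4 and 5 and ConA replicates 2 and 3, where it was 0.53 to 0.56 on the log2 scale (limma adjusted p 0.0823 to 0.116). The difference of the changes, 0.29 with a 95% interval of -0.37 to 0.96, did not pass the test (limma adjusted p = 0.439). Summed lymphocyte markers, 6 of 9 listed for PMA and 2 of 9 for ConA, were also higher with PMA (870.7 to 1424) than in its controls (706.8 to 823.4), and with ConA (39.54 to 48.08) they lay within the range of its controls (34.06 to 52.03). Their part in the DUSP6 values was not tested. In bulk RNA, fewer cells of a type and less RNA per cell cannot be told apart.

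PHLDA1, a cytoplasmic and nuclear protein widely used as a transcript marker of ERK activity, drew 39152 to 66515 estimated reads per library. In normalized counts it stood at 40262, 41619 and 45089 in the PMA controls and at 62965, 63245 and 61111 with PMA. It stood at 47299, 48459 and 49615 in the ConA controls and at 39504, 40932 and 41029 with ConA. PMA libraries were above and ConA libraries below their controls, with no overlap. PHLDA1 changed by 0.56 ± 0.05 (log2, limma adjusted p = 1.35e-06) with PMA and -0.26 ± 0.05 (limma adjusted p = 0.000623) with ConA, a value that came to -0.07 (adjusted p = 0.227) after quantile normalization. The changes differed by 0.82 (95% interval 0.68 to 0.97, limma adjusted p = 1.67e-08).

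**Figure D2:**
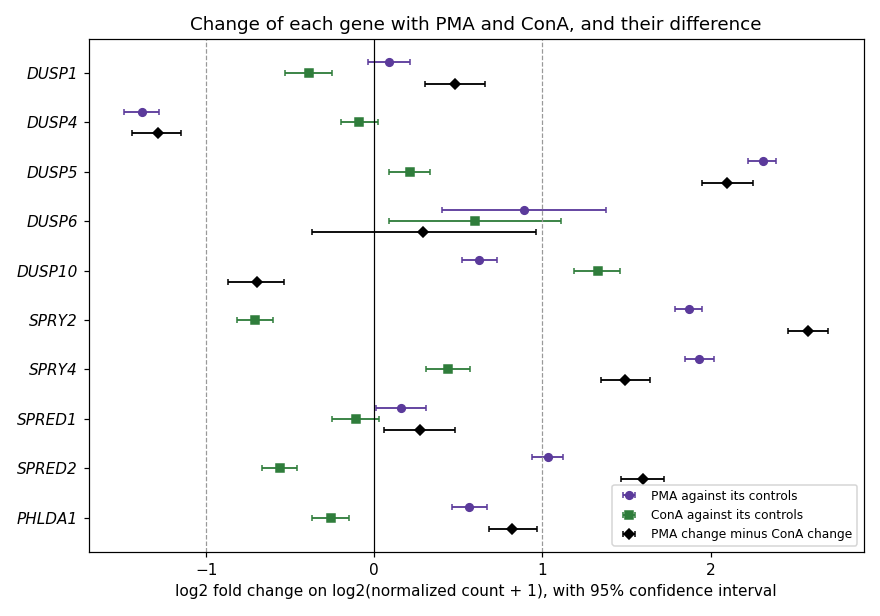
Log2 fold change (horizontal axis, on log2(normalized count + 1)) of each gene with PMA, with ConA, and the PMA change minus the ConA change, with 95% intervals. Dashed lines mark a 2-fold change, past which lie DUSP5, SPRY4, SPRY2, SPRED2 and DUSP4 for PMA and DUSP10 for ConA.

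Across the treatments, the difference of the changes was called for 5 of the 10 genes, 4 of them higher with PMA (SPRY2, DUSP5, SPRED2 and SPRY4) and 1 lower (DUSP4), where 10.6% of 15030 genes tested were called in either direction. By the looser rule the PMA change was the higher for 7 and the lower for 2, against 30.4% and 30.7% of all genes, and the median difference over the 10 was 0.65. SPRY2, SPRED2 and PHLDA1 rose with PMA and fell with ConA, and DUSP5, DUSP6, DUSP10 and SPRY4 rose with both.

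Per kilobase of merged exons (GENCODE 29, which may differ from the authors' annotation), the order of levels in the PMA controls ran from PHLDA1 (mean 5245 normalized counts per kilobase) through DUSP5 (1961), DUSP4 (1801), SPRY2 (998.6), DUSP1 (889.0), DUSP10 (545.7), SPRED2 (509.8), SPRY4 (349.5) and SPRED1 (207.6) to DUSP6 (11.9). DUSP10 and SPRED2 overlapped there, and no other neighbours did. With PMA, DUSP5 (9700) was above PHLDA1 (7738), SPRY2 (3657) and SPRY4 (1336) came next, and DUSP4 (689.9) stood above only SPRED1 (231.2) and DUSP6 (22.14), with no overlap between neighbours. In the ConA controls PHLDA1 (6005) led DUSP4 (1995), DUSP5 (1698) and SPRY2 (1009). With ConA the order was PHLDA1 (5018), DUSP5 (1962), DUSP4 (1875), DUSP10 (850.3), SPRY2 (617.0) and DUSP1 (583.9), in which DUSP5 overlapped DUSP4 and SPRY2 overlapped DUSP1. SPRED1 and DUSP6 closed the order in all 4 groups.

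The genes whose pattern was most like that of chosen members were found by Pearson's r of log2(normalized count + 1), centred on each table's controls, over 12 libraries and 14661 genes. The points share 2 experiments and their treatments, and r is given as a description. For DUSP5, the member with the largest PMA change, they were ETS1 (r = 0.998, a PMA change of 1.81 and a ConA change of 0.23 on the log2 scale), FRMD6 (0.997) and TM4SF19-TCTEX1D2 (0.997), an entry for a readthrough of neighbouring genes whose reads may be shared with them. For DUSP10, with the largest ConA change, they were ZCCHC2 (0.997), SPATS2L (0.997) and C1QTNF1 (0.996, a PMA change of 1.03 and a ConA change of 2.38). For the scarce DUSP6 likeness was lower, at 0.927 for RHOF, 0.925 for CRY1 and 0.912 for FAM241B.

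Other genes of the pathway were taken from lists by role, chosen with earlier results of these data known. Their counts stand beside the shares over all genes tested. With PMA 4.03% were called higher and 4.61% lower, and by the looser rule 32.8% rose and 30.5% fell. With ConA these shares were 5.83%, 2.88%, 32.8% and 32.5%. Among the other MAP kinase phosphatases, 4 of 5 were tested and 0 were called with either treatment, although by the looser rule 3 rose with PMA, and 3 rose and 1 fell with ConA. The list median was 0.55 with PMA and 0.37 with ConA. DUSP2, an immune phosphatase, had the largest value of this list, at 18.03 to 23.01 normalized counts in the ConA controls and 35.05 to 48.08 with ConA (log2 fold change 0.97 ± 0.24, limma adjusted p = 0.00256). With PMA its value was 0.51 (limma adjusted p = 0.0965). It passed the looser rule after quantile normalization (0.84, limma adjusted p = 0.0134) and without a variance trend (limma adjusted p = 0.0478), and came to 0.33 without PMA control replicate 3 (limma adjusted p = 0.311). The lymphocyte marker sums given beside DUSP6 apply to DUSP2 as well, and their part in its values was not tested. Among the other Sprouty and SPRED genes, SPRY1 was called lower with PMA, at 69.75 to 86.67 normalized counts in the controls and 27.86 to 31.13 with PMA (log2 fold change -1.40 ± 0.17, limma adjusted p = 2.88e-05). Its direction is opposite to that of SPRY2 and SPRY4. The call was lost in 8 of 15 alternatives, 5 of which left out a library (each PMA control, PMA replicate 1 or PMA replicate 2), with log2 values of -1.49 to -1.33 in those 5, and the adjusted p ran from 2e-05 to 0.000429 over all 15. SPRY3 had -0.07 with PMA (limma adjusted p = 0.748), and SPRED3 rose by 0.36 (limma adjusted p = 0.000794). With ConA 0 of these 3 were called and SPRED3 fell (-0.31, limma adjusted p = 0.000542).

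Of 15 ERK output genes outside the 10, 7 were called higher and 1 lower with PMA, against 4.03% and 4.61% of all genes tested. By the looser rule 12 rose and 2 fell with PMA, against 32.8% and 30.5%. ETV5 did not pass the test with PMA (log2 fold change 0.06, limma adjusted p = 0.359). The list median was 1.00. The gene called lower was ETV1 (log2 fold change -1.07, limma adjusted p = 1.32e-07). MYC fell with both treatments, at -0.19 with PMA (limma adjusted p = 0.00271) and -0.79 with ConA (limma adjusted p = 6.13e-07). The highest changes were those of EGR1, a zinc finger transcription factor (535.2 ± 64.7 to 6619 ± 246 normalized counts, SD, n = 3, log2 fold change 3.63), and UPP1, uridine phosphorylase (log2 fold change 2.46). FOSL1, an AP-1 subunit, rose by 1.81 and IER3, an early response gene, by 1.79, and the limma adjusted p of these 4 was at most 3.87e-11. ERRFI1, an inhibitor of the EGF receptor that is also a feedback gene, rose by 1.35 with PMA and fell by 1.09 with ConA, the only gene of the list called with ConA (limma adjusted p = 9.52e-11 and 2.68e-10). With ConA the list median was -0.12. By the looser rule 4 genes rose and 5 fell with ConA, against 32.8% and 32.5% of all genes tested. FOSL1 and EGR1 were among the 4, at 0.89 and 0.91, and UPP1 and IER3 among the 5, at -0.48 and -0.28.

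Of 21 kinases, adaptors and regulators of the RAS-ERK cascade, 0 were called higher and 1 lower with PMA and 0 with ConA, and the list medians were 0.08 and -0.07. By the looser rule 10 rose and 6 fell with PMA, against 32.8% and 30.5% of all genes tested. With ConA 5 rose and 7 fell, against 32.8% and 32.5%. The same shares apply to the lists that follow. The called gene was KSR1, a scaffold that holds RAF, MEK and ERK together, at 1160 ± 37.2 normalized counts (SD, n = 3) in the controls and 373.6 ± 14.1 with PMA (log2 fold change -1.63, limma adjusted p = 8.42e-10). In the p38 and JNK arm, 1 of 12 was called higher and 1 lower with PMA and 0 with ConA, with a median of 0.13 in both, and by the looser rule 7 rose and 1 fell with PMA and 3 rose and 1 fell with ConA. The 2 called genes encode closely related kinases that activate p38, MAP2K3 (log2 fold change 1.71, limma adjusted p = 3.51e-10) and MAP2K6 (-2.59, limma adjusted p = 5.39e-07). MAP2K6 was at 129.7 to 143.8 normalized counts in the PMA controls and only 17.11 to 29.02 with PMA. Its PMA value came to -2.20 with a pseudocount of 10, and its call was lost without a variance trend (limma adjusted p = 0.000139). MAP2K3 also rose with ConA, by 0.75 (limma adjusted p = 6.57e-08), where MAP2K6 had 0.22 (limma adjusted p = 0.108), and 0.30 without ConA control replicate 4 (limma adjusted p = 0.0471). Of the atypical dual-specificity phosphatases 9 of 10 were tested and 0 were called, with medians of 0.13 with PMA and -0.13 with ConA. By the looser rule, 4 rose and 2 fell with PMA and 1 rose and 4 fell with ConA. DUSP18 had the largest value there (-0.41 with ConA, limma adjusted p = 0.003). At an unadjusted limma p under 0.05, the counts of all 6 lists equalled those of the looser rule, except in 2 lists with ConA. There 6 genes of the RAS-ERK cascade and 5 of the p38 and JNK arm were higher, against 34.4% of all genes tested.

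**Figure D3:**
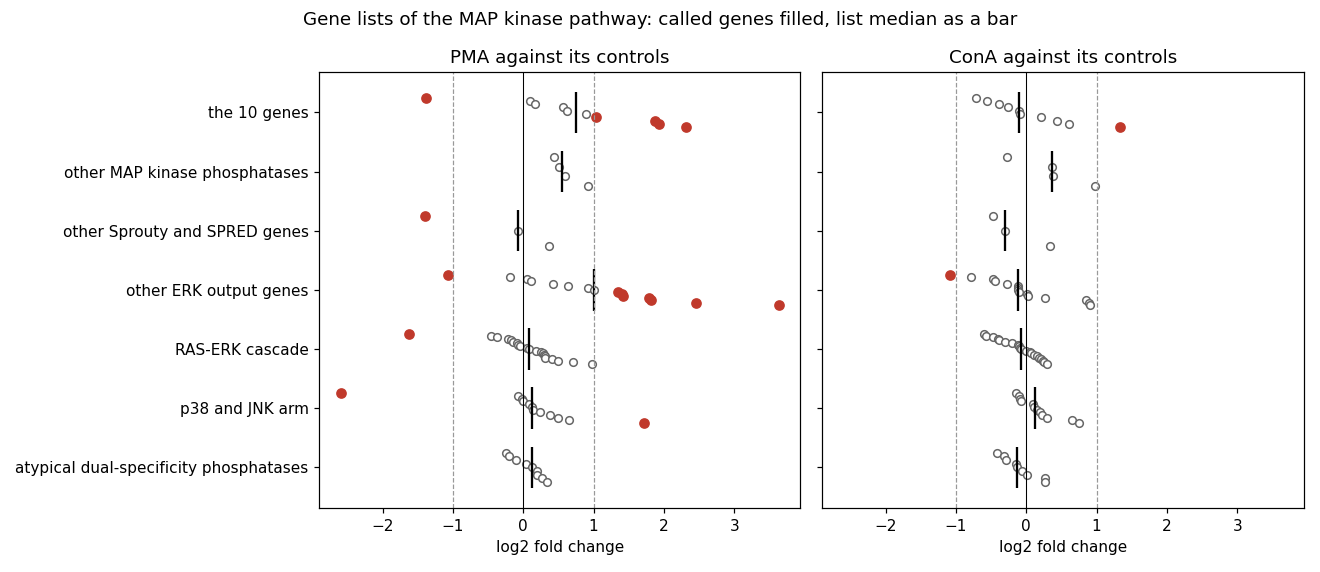
Log2 fold change (horizontal axis) of every tested gene of the 10 genes and of 6 further lists with PMA (left) and ConA (right), with called genes filled and the list median as a bar. Filled points above 1 with PMA lie among the 10 genes, the other ERK output genes and, as 1 gene, the p38 and JNK arm, and with ConA the sole filled point above 1 is DUSP10.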

How the data were processed

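Polyadenylated RNA of HT1080 cells was sequenced in 12 libraries by a service company. The authors deposited 1 table per experiment of signal values, which are normalized counts per gene symbol: counts divided by 1 factor per library. The submitters' processing notes name Partek, Bowtie2, STAR and DESeq2 and the builds mm10 and hg19, without roles or versions, and the authors' own test is not given in the sources used here. The factors were estimated from values between 5 and 60. Only 80.2% to 82.6% of those became whole (within 0.02), so reads could not be recovered and count models were not run. Replicates differed by more than sampling noise (squared difference over sampling variance 3.53 to 16.43). Precision therefore rests on the spread over 3 libraries, which limma draws towards a trend over all genes.

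The values were fitted with limma 3.58.1 in R 4.3.3 (lmFit, eBayes with a variance trend) on log2(normalized count + 1) within each table, for genes with a mean of at least 10, with Benjamini-Hochberg adjustment. Fold changes of low genes are understated by the pseudocount. The difference of the changes was fitted over all 12 libraries with 4 group means. An exact permutation of 3 against 3 libraries cannot go below p = 0.1, so none was run. Named genes were the 10 members. From each list, genes called with either treatment were also named, up to the 4 with the largest change, or the 1 with the largest change where none was called. ERRFI1, ETV1, ETV5, MYC, DUSP8, SPRY3 and SPRED3 were added after their values were seen. Nearest patterns were taken for DUSP6 and for the member with the largest change per treatment. Members and lists were chosen with earlier results of these data known. The model was checked on simulated data. Alternatives covered the pseudocount, the minimum level, quantile normalization, the variance trend, 1 fit of all libraries, the threshold, the replicate number as a block and each library left out. Promoter windows came from RefSeq (GRCh38.p14), exon lengths from GENCODE 29. Tables and plots used pandas 2.3.3, numpy 2.4.6 and matplotlib 3.10.9 under Python 3.11.15.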

Additional observations from a re-analysis of the deposited data

Results flagged for a closer look

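For 5 of the 10 genes the test of the difference between treatments was past both thresholds (limma over 12 libraries, Benjamini-Hochberg adjusted). The PMA change minus the ConA change was 2.58 on the log2 scale for SPRY2, 2.10 for DUSP5, 1.60 for SPRED2, 1.49 for SPRY4 and -1.29 for DUSP4. SPRY2 and SPRED2 differed in sign between the treatments, DUSP5 and SPRY4 rose with both, and DUSP4 passed the test with PMA only. Treatment and experiment cannot be told apart in these values.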

How the results depend on the processing

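Of 479 values of the 10 genes under the alternatives, 478 kept their direction, where they were past the call threshold, and their side of it, and 1, the rise of SPRED2 with PMA, came to 0.89 after quantile normalization. The number of all genes called fell from 1310 to 867 with PMA and from 1318 to 662 with ConA when limma was run without a variance trend. The limma adjusted p of SPRY2 with PMA then went from 6.83e-12 to 3.24e-06. The members called stayed at 5 with PMA in every other alternative than quantile normalization (4), at 1 with ConA in all, and at 5 for the difference of the changes in all. At an adjusted p of at most 0.05, DUSP1 with PMA came to -0.004 after quantile normalization (adjusted p = 0.951), and 10 of the 10 genes passed without PMA control replicate 3. SPRED1 passed in 2 of 15 alternatives with PMA and in 13 of 19 for the difference of the changes, and DUSP6 with ConA in 8 of 13 (it was not tested at a minimum mean of 50). In each of these counts 1 alternative, the changed call threshold, repeats the main fit and its adjusted p. No scaling moved the median of all genes by over 0.1. Among genes of the lists named by rule, without those added later, 463 of 475 values kept their call, 9 lost it (8 of SPRY1, 1 of MAP2K6) and 3 gained one.

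Replicate numbers 1 to 3 are shared by PMA and its controls, and the correlations of same-numbered libraries' deviations were -0.064, 0.096 and 0.096, so these samples share only a number. With the replicate block 1264 genes were called, the members called stayed at 5, and 9 members passed an adjusted p of 0.05, SPRED1 (0.16, adjusted p = 0.0367) in addition to the 8. The ConA groups are numbered 1 to 3 and 4 to 6, so no block could be fitted there. DUSP6, DUSP2, SPRY1 and, with PMA, MAP2K6 had low normalized counts and wide errors, and the part of depth in these was not tested.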
